A study of Homo sapiens with 2 samples.

Results

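The cytosolic ribosomal protein genes encode the proteins of the ribosome that translates nuclear messages. They were taken as the protein-coding genes of RefSeq whose symbols begin with RPL or RPS and a digit, with RPLP0, RPLP1, RPLP2 and RPSA and without the RPS6K kinases. This gave 91 of 20033 protein-coding genes: 46 genes of the large subunit, 31 of the small subunit, 10 paralogs, 3 read-through genes that join a ribosomal protein gene to a neighbour, and RPS19BP1, whose product binds RPS19 and is no part of the ribosome. FAU and RACK1, which also encode proteins of the ribosome, fall outside the symbols and are given further on.

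The libraries are CUT&Tag, in which a transposase tethered to an antibody cuts and tags DNA around the antibody's target, here set up for EWS-FLI. TC32 is an established Ewing sarcoma cell line, and EWS-FLI, the oncogenic fusion protein of these tumours, joins part of EWSR1 to the DNA-binding part of FLI1, an ETS factor. The cells were given siEWS-FLI (1 library) or siNEG (1 library); what siNEG stands for is not written out, and it is taken as the arm set beside siEWS-FLI. With 1 library in each group, no difference below has a replicate check and no test was run, the antibody is not named in the labels, and the level of the fusion was not measured.

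Each library has its own list of called intervals, and a summit is the highest point of one. The siEWS-FLI list held 6370 intervals and the siNEG list 16284 on chromosomes 1 to 22, X and Y. Signal is given as the summit pileup, the number of raw reads extended over the summit base, with exact 95% Poisson intervals that cover counting error only. Pileups were not scaled between libraries. With an assumed genome size, the siEWS-FLI library was estimated to hold 0.562 times as many non-mitochondrial reads as the siNEG library, so the lists were not made at equal depth. A place with no called interval may still hold reads too few for the caller. Of 7 loci of Ewing sarcoma markers, 0 had a siEWS-FLI summit within 1 kb of an end, against 12.3% of all protein-coding genes, and 3 had a siNEG summit (42.9%, exact binomial 95% interval 9.90 to 81.6), against 34.1%. Of 9 loci that mark liver, blood or epithelial cells, 0 had a summit within 1 kb in either library. With so few loci, these counts do not check the cell label.

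Ribosomal protein genes are transcribed at high rates in growing cells, and their products are made in matched amounts. Their transcripts begin with a C and a run of pyrimidines, the terminal oligopyrimidine (TOP) element through which mTOR signalling and LARP1 control their translation. ETS factors bind sequences around GGAA, and the ETS family member GABPA is known at promoters of ribosomal protein genes. EWS-FLI keeps the ETS domain of FLI1 and also binds GGAA repeats.

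The promoters below are shown because they carry the strongest siNEG signal, or the most different outcome with siEWS-FLI, among these genes. Each runs from 220 bases before to 20 bases from the annotated start in RefSeq GRCh38.p14 and is written in the direction of transcription. Capitals mark the ETS-type cores CCGGAA and CGGAAG on either strand, so that TTCCGG and CTTCCG are the same cores read from the other strand. RPS19 (chr19:41860035-41860274, plus strand), RPL28 (chr19:55385712-55385951, plus) and RPS14 (chr5:150449720-150449959, minus) had intervals in both libraries. So did RPS6 (chr9:19380217-19380456, minus) and RPS12 (chr6:132814349-132814588, plus), the last with the highest ratio between libraries. RPS16 (chr19:39435930-39436169, minus) and RPLP2 (chr11:809747-809986, plus) had an interval with siNEG only.
RPS19: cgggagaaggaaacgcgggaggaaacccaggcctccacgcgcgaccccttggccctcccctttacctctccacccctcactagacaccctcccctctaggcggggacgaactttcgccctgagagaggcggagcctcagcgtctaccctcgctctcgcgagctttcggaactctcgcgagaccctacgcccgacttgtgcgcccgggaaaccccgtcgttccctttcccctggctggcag
RPL28: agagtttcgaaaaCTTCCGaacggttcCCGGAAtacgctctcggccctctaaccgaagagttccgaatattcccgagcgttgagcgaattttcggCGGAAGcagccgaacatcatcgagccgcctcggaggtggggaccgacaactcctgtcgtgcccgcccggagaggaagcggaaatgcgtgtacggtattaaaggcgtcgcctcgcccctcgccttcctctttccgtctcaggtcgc
RPS14: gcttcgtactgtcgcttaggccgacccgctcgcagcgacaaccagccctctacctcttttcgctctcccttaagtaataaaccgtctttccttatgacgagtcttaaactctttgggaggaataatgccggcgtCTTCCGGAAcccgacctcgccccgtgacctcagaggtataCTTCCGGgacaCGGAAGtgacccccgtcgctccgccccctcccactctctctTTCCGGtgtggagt
RPS6: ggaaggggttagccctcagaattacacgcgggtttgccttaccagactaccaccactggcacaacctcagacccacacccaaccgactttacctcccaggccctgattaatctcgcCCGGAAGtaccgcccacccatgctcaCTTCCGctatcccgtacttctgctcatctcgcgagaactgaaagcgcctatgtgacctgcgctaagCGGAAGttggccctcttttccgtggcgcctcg
RPS12: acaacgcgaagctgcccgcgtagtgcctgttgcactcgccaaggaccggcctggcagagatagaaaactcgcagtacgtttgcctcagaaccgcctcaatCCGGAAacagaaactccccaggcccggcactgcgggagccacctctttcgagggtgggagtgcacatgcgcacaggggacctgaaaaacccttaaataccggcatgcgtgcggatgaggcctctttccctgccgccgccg
RPS16: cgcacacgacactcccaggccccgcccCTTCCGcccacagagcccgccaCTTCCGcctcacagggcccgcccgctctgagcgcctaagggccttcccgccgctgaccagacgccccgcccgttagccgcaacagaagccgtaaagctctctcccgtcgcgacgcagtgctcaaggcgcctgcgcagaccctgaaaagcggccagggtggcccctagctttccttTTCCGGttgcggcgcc
RPLP2: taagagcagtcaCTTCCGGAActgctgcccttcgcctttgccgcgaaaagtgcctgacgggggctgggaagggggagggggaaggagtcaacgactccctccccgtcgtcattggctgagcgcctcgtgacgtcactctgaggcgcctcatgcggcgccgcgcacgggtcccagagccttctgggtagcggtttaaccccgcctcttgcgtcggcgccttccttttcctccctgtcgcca
RPS14 had 4 separate capital runs, RPL28, RPS6 and RPS16 had 3 each, RPLP2 and RPS12 had 1 each, and RPS19, the gene with the highest pileup, had 0 in this window. The strongest siNEG summits of RPS19, RPL28 and RPLP2 lay 302, 294 and 299 bases upstream of the start. All 3 are outside this window, so the sequence under them is not shown. These letters describe the sequence and do not show what bound there.

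Most ribosomal protein genes had a called site at an end with siNEG, and a minority had one with siEWS-FLI. A siEWS-FLI summit lay within 1 kb of an end of 24 of the 91 genes (26.4%, exact binomial 95% interval 17.7 to 36.7), against 12.3% of all protein-coding genes. A siNEG summit lay within 1 kb of 67 of the 91 (73.6%, 63.3 to 82.3), against 34.1% of all protein-coding genes. Among the standard proteins of the ribosome, 22 of 77 genes had a siEWS-FLI summit and 60 of 77 (77.9%, 67.0 to 86.6) a siNEG summit. The subunits were close to each other. With siEWS-FLI the large subunit had 13 of 46 genes with a summit (28.3%, 16.0 to 43.5) and the small subunit 9 of 31 (29.0%, 14.2 to 48.0). With siNEG the large subunit had 35 of 46 (76.1%, 61.2 to 87.4) and the small subunit 25 of 31 (80.6%, 62.5 to 92.5). RPL36A and its read-through gene RPL36A-HNRNPH2 have the same start and were given the same interval, which leaves 66 distinct strongest intervals for the 67 genes. Of the 12 genes on chromosome 19, 11 had a siNEG summit, where 43.6% of all protein-coding genes did, and the 9 on chromosome 3 had it in 7 cases, where 30.9% did.

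The sites were frequent but not strong. Over the 67 genes the median siNEG pileup was 13 reads (quartiles 9 and 28), beside 12 (8 and 25) over all 6834 protein-coding genes with such a summit. A pileup of 4 to 9 siNEG reads was found at 18 of the 67 genes (26.9%), against 37.0% of all protein-coding genes with such a summit. A siNEG pileup of 50 or more was reached by 9 of the 67 (13.4%), against 11.5%. The plot of pileup by gene shows these 9 at the left, with siNEG values of 58 to 262 reads, and a gradual decline over the other genes. The siEWS-FLI pileup exceeded 18 reads at RPS19 alone.

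**Figure D1:**
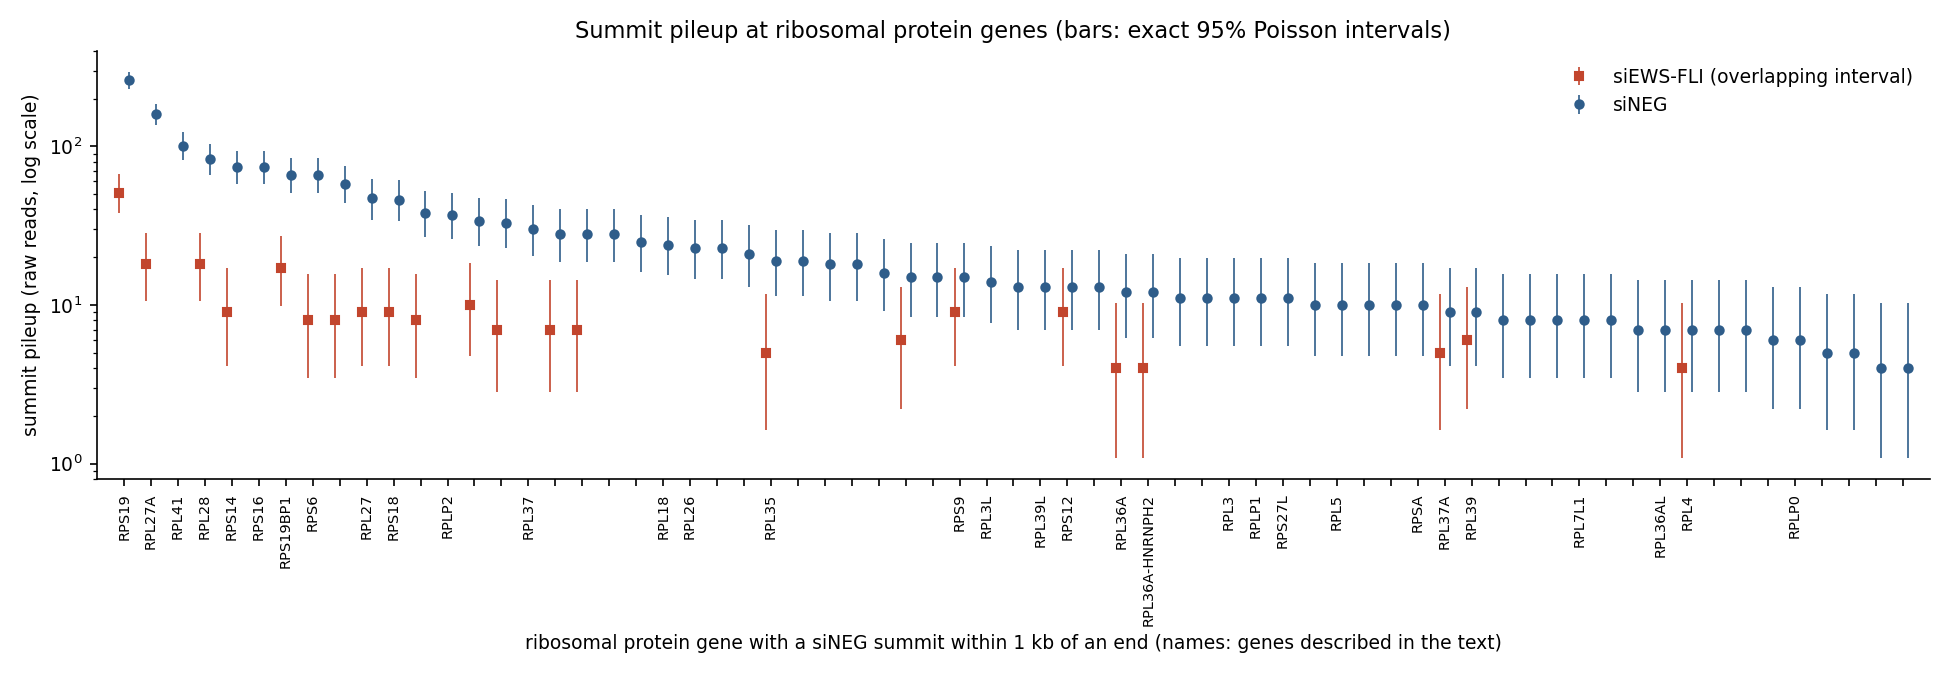
Summit pileup in raw reads on a log axis for the 67 ribosomal protein genes with a siNEG summit within 1 kb, ordered by siNEG pileup, with names under the genes described in the text. Red squares give the overlapping siEWS-FLI interval of 23 genes, blue circles the strongest siNEG interval, and bars are exact 95% Poisson intervals. All 23 siEWS-FLI values lie below the siNEG value of the same gene, with overlapping bars among the weak sites on the right.

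RPS19 encodes a small-subunit protein whose loss impairs red cell formation in people. At a summit 302 bases upstream of its start, it had 51 reads with siEWS-FLI (38.0 to 67.1) and 262 with siNEG (231 to 296), an interval in the top 0.160% of the siNEG list. The ratio, siEWS-FLI over siNEG, was 0.195 (exact conditional 95% interval 0.141 to 0.264). At RPL28, of the large subunit, the pileup was 18 reads with siEWS-FLI and 83 with siNEG (66.1 to 103), a ratio of 0.217. RPS14, of the small subunit, had 9 reads with siEWS-FLI and 74 with siNEG (58.1 to 92.9) at a summit 171 bases upstream of its start. RPS6, the small-subunit protein that S6 kinases phosphorylate below mTOR, had 8 reads with siEWS-FLI and 66 with siNEG (51.0 to 84.0), a ratio of 0.121. RPL27, of the large subunit, had 9 and 47 reads in the same order. In these 5 genes the Poisson intervals of the libraries did not overlap. RPS19BP1, which is not ribosomal, had 17 reads with siEWS-FLI and 66 with siNEG.

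RPL27A, of the large subunit, had its strongest interval away from its start. It lay inside the gene, 867 bases from the far end and 6213 bases downstream of the start, with 18 reads with siEWS-FLI and 159 with siNEG (135 to 186). The ratio of 0.113 (0.0654 to 0.185) was the lowest among the ribosomal protein genes. A weaker interval at the start of RPL27A had 7 reads with siEWS-FLI and 26 with siNEG (17.0 to 38.1). RPL41, which encodes a very short protein of the large subunit, had no siEWS-FLI summit within 1 kb and 101 siNEG reads (82.3 to 123) at a summit closer to the end of ZC3H10. RPL26 had its stronger siNEG site (23 reads) at its far end, closer to KRABD2, and a weaker one of 11 reads 251 bases upstream of its start.

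In most of the ribosomal protein genes the site lay just upstream of the start. The table of promoters gives a start for 52 of the 67 genes with a siNEG summit, and in 48 of them the strongest siNEG summit was within 1 kb of it. With negative positions upstream of the start, their median position was -102.5 bases (quartiles -172 and 0.25), and all 48 lay within 350 bases. Over all protein-coding genes the median was -101 bases, with quartiles -196 and 32, and 4707 of 5256 such summits lay within 350 bases. For siEWS-FLI summits the median was -163 bases over 18 ribosomal protein genes and -132 over all protein-coding genes. The histograms of summit position have their mode upstream of the start in both sets. Another protein-coding gene had an end within 1 kb of the siNEG summit in 18 of the 67 cases (26.9%), against 35.7% over all protein-coding genes. In 8 of them that other end was the closer one, a count not made over all protein-coding genes. These were ZC3H10 at RPL41, VPS52 at RPS18, PIDD1 at RPLP2, SPHK2 at RPL18, KRABD2 at RPL26, ARPC5L at RPL35, MSRB1 at RPL3L and MGAT2 at RPL36AL.

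**Figure D2:**
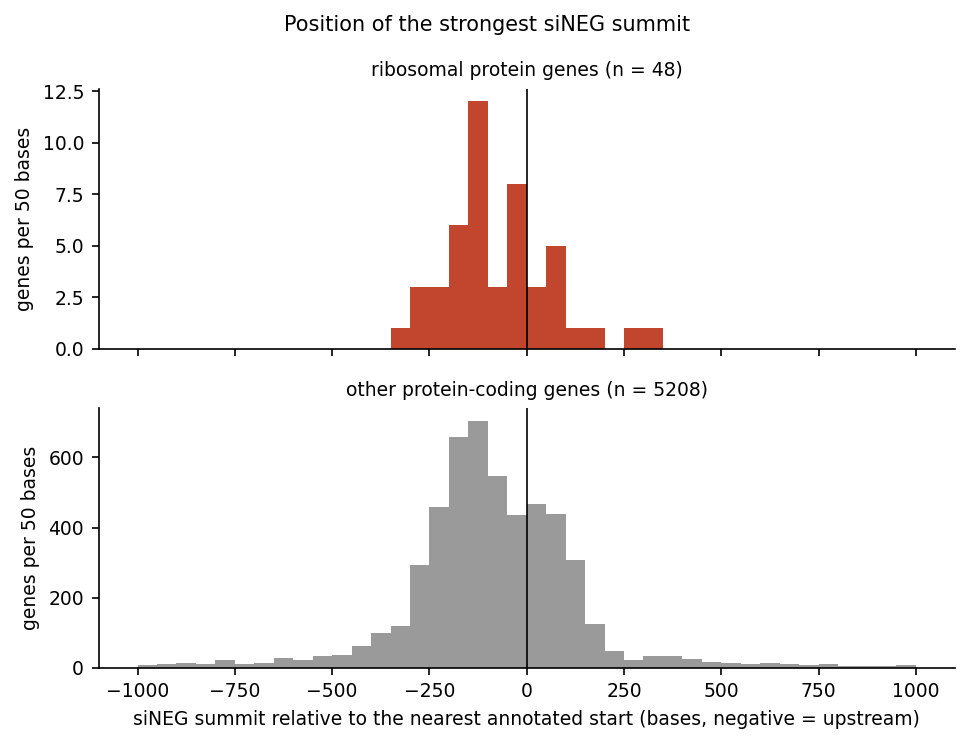
Position of the strongest siNEG summit relative to the nearest annotated start, in bases, with negative values upstream; bars count genes per 50 bases, and summits within 1 kb of a start are shown. The upper panel holds 48 ribosomal protein genes and the lower panel the other protein-coding genes, and in both most summits lie upstream of the start.

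The proportion of sites also called with siEWS-FLI was close to that of other genes. Of the 67 genes with a siNEG summit within 1 kb, 23 also had a siEWS-FLI summit there (34.3%, 23.2 to 46.9), against 32.7% of all protein-coding genes with a siNEG summit. In each of the 23 the strongest siNEG interval overlapped a siEWS-FLI interval, which over all protein-coding genes happened in 30.8%. The large subunit had 12 of 35 such genes (34.3%) and the small subunit 9 of 25 (36%). The summits of the libraries lay within 100 bases of each other in 16 of the 23 genes and at most 348 bases apart, at RPL39. These distances were not summarised over all protein-coding genes. The share followed siNEG strength as it did elsewhere, as the plot of shared intervals by strength shows. It was 3 of 18 at 4 to 9 siNEG reads (16.7%, 3.58 to 41.4), beside 7.64% of all protein-coding genes in that class. At 10 to 19 reads it was 6 of 25 (24%, 9.36 to 45.1), beside 22.5%. At 20 to 49 reads it was 7 of 15 (46.7%, 21.3 to 73.4), beside 53.1%, and at 50 or more 7 of 9 (77.8%, 40.0 to 97.2), beside 86.9%. In each class the value over all protein-coding genes lay inside the interval of the ribosomal protein genes.

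**Figure D3:**
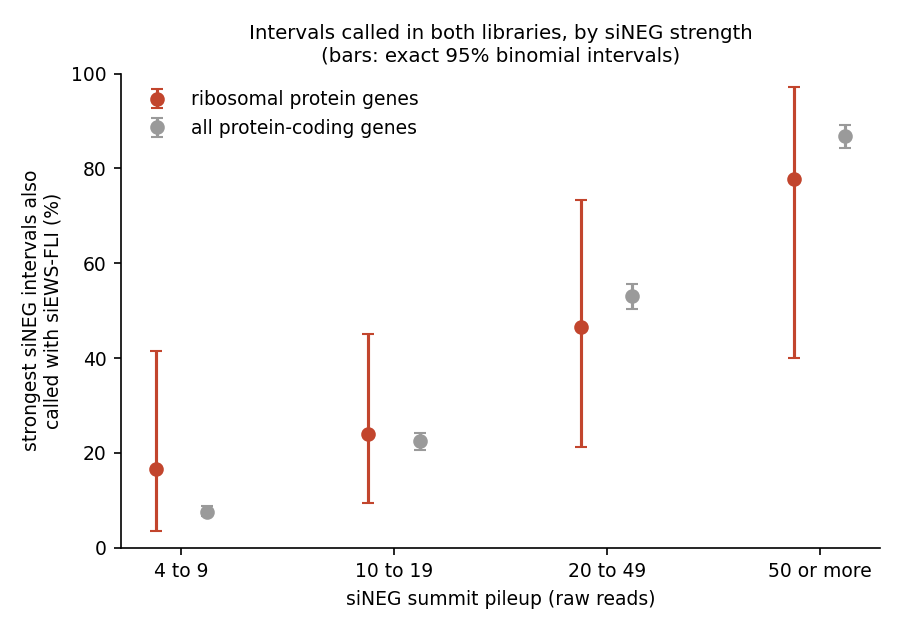
Share, in percent, of strongest siNEG intervals within 1 kb of a gene end that overlap a siEWS-FLI interval, in 4 classes of siNEG pileup in raw reads, with exact 95% binomial intervals. Ribosomal protein genes (red) run from 16.7% to 77.8% and all protein-coding genes (grey) from 7.64% to 86.9%, with the grey value inside the red interval in every class.

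Where both libraries had a site, the siEWS-FLI pileup was the lower one in all 23 genes. The same count was not made over all protein-coding genes, and these pileups were not scaled for the difference in reads. The median pileup over these genes was 8 reads with siEWS-FLI and 33 with siNEG, and the median ratio was 0.25, beside 0.267 over the 2107 protein-coding genes with a shared interval. The siEWS-FLI pileup was lower by more than 2-fold in 18 of the 23, against 77.9% of all protein-coding genes with a shared interval. The ratio was under the read ratio of 0.562 in 19 of the 23, beside 1776 of the 2107 protein-coding genes with a shared interval. Its 95% interval lay wholly under 0.562 in 11 ribosomal protein genes and held it in the other 12, a count not made over all genes. The ratio of the deposited fold enrichments, which set each pileup plus 1 over its own local background plus 1, had a median of 0.527. That median was not computed over all protein-coding genes. The scatter of shared intervals places the ribosomal protein genes among the other genes. The highest ratios belonged to weak sites. RPS12, of the small subunit, had 9 reads with siEWS-FLI and 13 with siNEG, a ratio of 0.692 (0.261 to 1.75). RPL39 had 6 and 9 reads in the same order, RPS9 had 9 and 15, RPL4 had 4 and 7, and RPL37A had 5 and 9. The Poisson intervals of the libraries overlapped in each of these 5, and the caller lists nothing under 4 reads, so a low ratio cannot appear at a weak siNEG site.

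**Figure D4:**
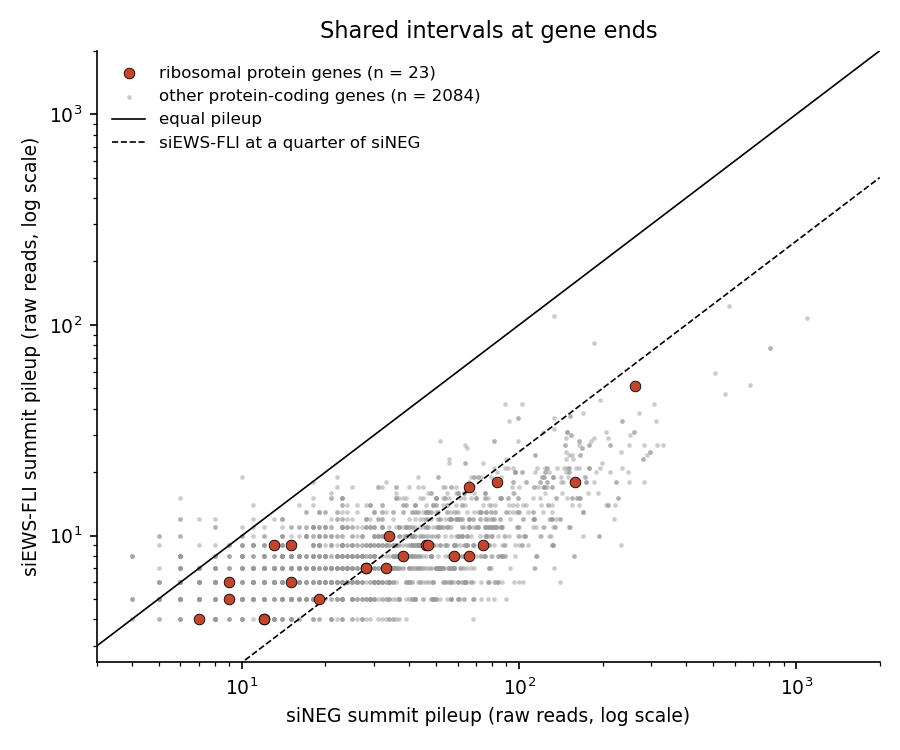
Summit pileup with siEWS-FLI (vertical) against siNEG (horizontal), in raw reads on log axes, for gene-end intervals called in both libraries. The 23 ribosomal protein genes (red) lie below the line of equal pileup, near the dashed line at a ratio of 0.25, within the range of 2084 other protein-coding genes (grey).

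The remaining 44 of the 67 genes had a site with siNEG alone. After RPL41, the strongest was RPS16, of the small subunit, with 74 siNEG reads (58.1 to 92.9), where siEWS-FLI calling, over the siNEG library's local background, would have needed more than 11 reads. RPLP2, one of the acidic proteins of the stalk that recruits translation factors, had 37 siNEG reads (26.1 to 51.0) at a summit closer to PIDD1. RPL37, of the large subunit, had 30 siNEG reads. Of the 44 siNEG pileups, 11 multiplied by the read ratio of 0.562 stayed at or under that calling limit, and 40 did so when multiplied by 0.25, the median ratio of the shared sites. That limit rests on the siNEG local background and can be too high, because shared sites were called with siEWS-FLI under it. RPS6 was called at 8 reads and RPS18 at 9, where the limit was 11 for each. The counts of 11 and 40 may thus be too large, and they were not computed over all protein-coding genes. Which of the 44 sites were lost, and which were lowered as far as the shared sites, was not tested. RPL41, RPS16 and RPLP2 were among the 4 above the limit at that ratio.

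Of the other stalk proteins, RPLP1 had 11 siNEG reads (5.49 to 19.7) and RPLP0, which anchors the stalk, had 6. RPSA, of the small subunit, had 10 siNEG reads. RPL5, which with RPL11 binds MDM2 when ribosome assembly is disturbed, had 10 siNEG reads at an end that also lies close to DIPK1A. None of these 4 had a siEWS-FLI summit within 1 kb, and RPL11 had no summit within 1 kb in either library.

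Among the 77 standard genes, 17 had no siNEG summit within 1 kb of an end. Among them were RPL7A, RPL9, RPL10A, RPL11, RPL12, RPL13, RPL14, RPL17, RPL23, RPL31 and RPL36 of the large subunit, and RPS2, RPS4X, RPS10, RPS24 and RPS29 of the small subunit. RPL13 alone had a siEWS-FLI summit, of 5 reads (1.62 to 11.7), 354 bases from an end and 5764 bases downstream of its nearest listed start. Such a summit without a siNEG one was found at 1.14% of all protein-coding genes. The window's edge separated few genes. RPL3L lay just inside it, with a siNEG summit of 14 reads at 659 bases, and RPL17 just outside, with 16 reads at 1244 bases. RPL36 came next, with 32 reads at 3338 bases.

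Of the 10 paralogs, 0 had a siEWS-FLI summit within 1 kb and 5 had a siNEG summit. They were RPL3L (14 siNEG reads), a muscle form of RPL3, RPL39L (13), RPS27L (11), a target of p53, RPL7L1 (8) and RPL36AL (7). RPL10L, RPL22L1, RPL26L1 and the Y-linked pair had none. Of the read-through genes, RPL36A-HNRNPH2 alone had a summit, with 4 reads with siEWS-FLI and 12 with siNEG at the start it has in common with RPL36A.

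Within 50 kb nearly all ribosomal protein genes had a siNEG site, though often that of a neighbour. With siEWS-FLI 58 of 91 genes had one (63.7%, 53.0 to 73.6), against 44.5% of all protein-coding genes, and with siNEG 84 (92.3%, 84.8 to 96.9), against 71.8%. Both libraries had one at 58 of the 84 (69.0%, 58.0 to 78.7), against 55.9%. The strongest siNEG site within 50 kb was the gene's own site within 1 kb in 37 cases, a count not made over all protein-coding genes. The median number of siNEG intervals in the window was 2, beside 1 over all protein-coding genes. RPL36, with no summit within 1 kb, had in its window the site at LONP1, with 78 reads with siEWS-FLI and 801 with siNEG, 28.6 kb from its end. When each summit was given to its nearest gene alone, 31 ribosomal protein genes had a siEWS-FLI summit (34.1%, against 20.4% of all) and 63 a siNEG summit (69.2%, against 45.8%). Of those 63, 27 had both (42.9%, against 33.2%). RPL9, RPL10A, RPL31, RPS4X, RPL10L and the Y-linked pair had no summit in either library within 50 kb.

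The plot of shares by gene list sets the ribosomal protein genes beside other genes of translation and the proteasome, which degrades proteins. Of 77 genes of the mitochondrial ribosome, which translates the messages of the mitochondrial genome, 13 had a siEWS-FLI summit within 1 kb (16.9%, 9.31 to 27.1) and 42 a siNEG summit (54.5%, 42.8 to 65.9). Of 40 proteasome subunit genes, 12 had a siEWS-FLI summit (30%, 16.6 to 46.5) and 24 a siNEG summit (60%, 43.3 to 75.1). Their median ratios at shared intervals were 0.225 and 0.167. Of 18 other genes whose transcripts begin with a TOP element, 8 had a siEWS-FLI and 15 a siNEG summit (83.3%, 58.6 to 96.4), among them EIF3G, a subunit of an initiation factor, with 11 and 115 reads in that order. Of 30 genes of ribosome biogenesis, 9 had a siEWS-FLI and 21 a siNEG summit (70%), and NIP7, which acts in the assembly of the large subunit, had 20 and 97 reads. Of 12 genes that control translation, 4 had a siEWS-FLI and 9 a siNEG summit, and MTOR, the growth kinase, had 11 and 100 reads. Of the remaining proteins of the ribosome, RACK1 had 9 and 54 reads and FAU had 13 siNEG reads alone. With siNEG, the interval of the 91 ribosomal protein genes (63.3 to 82.3%) overlapped those of both the mitochondrial ribosome and the proteasome genes. The interval of the 77 standard genes alone (67.0 to 86.6%) overlapped that of the proteasome genes and not that of the mitochondrial ribosome. No test of these differences was run.

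**Figure D5:**
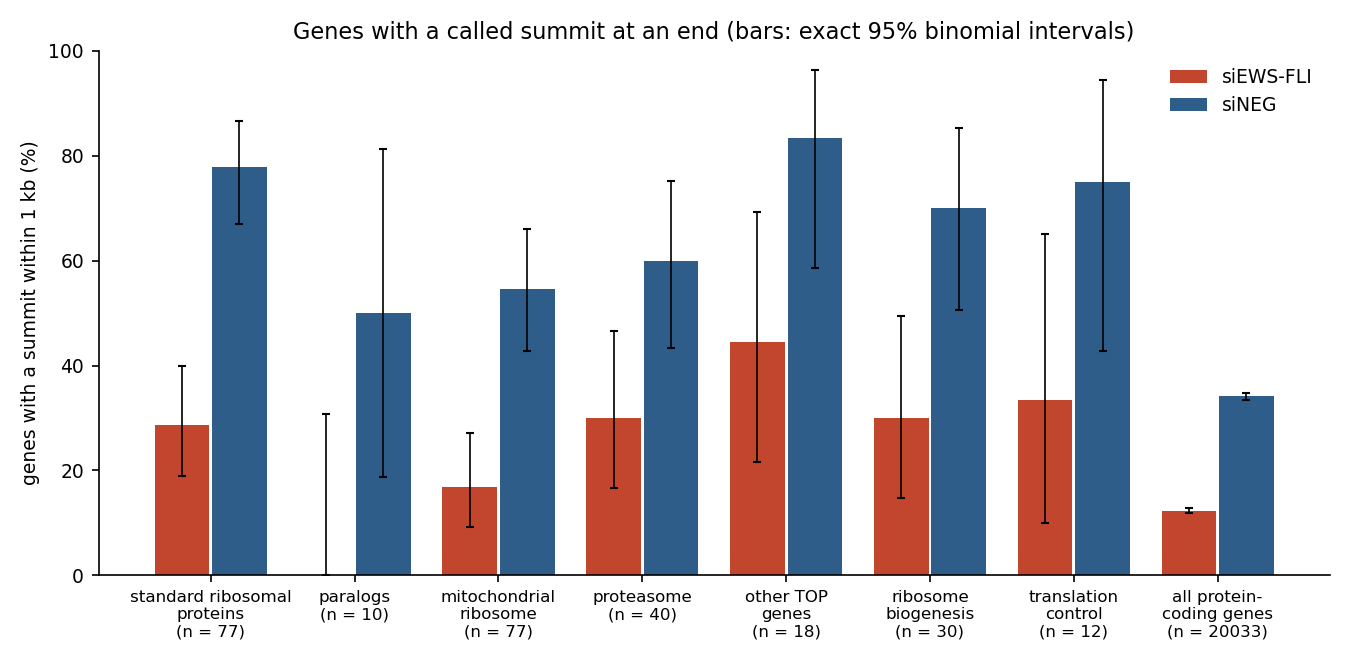
Share, in percent, of the genes of each list with a summit within 1 kb of an end, for siEWS-FLI (red) and siNEG (blue), with exact 95% binomial intervals and the number of genes under each list. The standard ribosomal protein genes reach 28.6% with siEWS-FLI and 77.9% with siNEG, against 12.3% and 34.1% of all protein-coding genes.

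ETS-type cores were more common in promoters of ribosomal protein genes than over all protein-coding genes. The table of promoters held 72 of the 91 genes and 15842 protein-coding genes in all. The window ran from 250 bases before to 50 bases from the start, the first listed start was used for each gene, and both strands were searched. Of the 48 strongest siNEG summits within 1 kb of a start, 35 lay in this window (72.9%), against 63.1% over all protein-coding genes. Sequence under the other summits was not searched. CCGGAA was found in 38 of 72 promoters of ribosomal protein genes (52.8%), against 22.9% of all. CGGAAG, which overlaps it by 5 bases, was found in 45 of 72 (62.5%), against 25.6%. The joined core CCGGAAG was found in 31.9%, against 14.2% of all. The doubled repeat GGAAGGAA was found in 3 of 72 (4.17%), against 3.58%, and the bare GGAA in 98.6%, against 95.1%. In the other lists, CCGGAA was found in 56.5% of 69 mitochondrial ribosome promoters, 48.6% of 35 proteasome promoters and 53.8% of 26 biogenesis promoters. CGGAAG was found in 53.6%, 60% and 42.3% of the same promoters, and no test was run between lists.

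Promoters were split by whether the gene had a siNEG summit within 1 kb of either end. The strongest such summit was not within 1 kb of a listed start in 4 of 52 ribosomal protein genes and 489 of 5745 protein-coding genes. Over all protein-coding genes CCGGAA was found in 40.1% of promoters of genes with a siNEG summit and in 13.1% of those without. In ribosomal protein genes it was found in 29 of 52 promoters of genes with a siNEG summit (55.8%) and in 9 of 20 without (45%). CGGAAG was found in 37 of the 52 (71.2%) and in 8 of the 20 (40%). The median siNEG pileup was 15 reads at ribosomal protein genes with CGGAAG and 8 at those without, and over all protein-coding genes it was 17 and 11. Presence of the core did not separate sites called in both libraries from the others. CGGAAG was found in 14 of 19 promoters of genes with a shared site (73.7%). In genes with a siNEG-only site it was found in 23 of 33 (69.7%). CCGGAA was found in 52.6% and 57.6% of the same promoters.

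Of other short sequences, ATGGCG, part of the site of the factor YY1, was found in 34.7% of the 72 promoters, against 14.3% of all. AAGATGG was found in 12.5%, against 6.40%, GGGCGG, the core of GC boxes, in 52.8%, against 58.5%, and TATAAA in 9.72%, against 9.63%. A C followed by 4 pyrimidines stood at the annotated start in 42 of 62 standard genes (67.7%), against 4.60% of all protein-coding genes, the letters of the TOP element. The promoters had a median GC content of 59% and 23 CpG, against 62.7% and 22 over all.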

How the data were processed

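The submitters' processing notes list the build hg38 and, with no role stated, MACS2 2.2.9.1, Bowtie2 2.4.5 and Trim Galore 0.6.6. Whether a control library was used and how duplicate reads were handled is not given in the sources used here. The libraries were amplified by 14 and then 20 cycles of PCR, per the labels' protocols. Intervals were called per library. The authors deposited a fold enrichment (a linear ratio over local background) and −log10 p and −log10 q values for each summit, which are the authors' own and rank intervals within a list only. The deposited score was not used.

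The pileup was computed as the whole number that solves both the deposited fold, read as (pileup + 1) divided by (local background + 1), and the −log10 p, read as a Poisson upper-tail probability. This held for 100% of lines of each list (tolerance 0.001 in log10 p, growing in proportion above 10), after a check on simulated data. Genome-wide background came to 0.239 (siEWS-FLI) and 0.348 (siNEG) reads per base. The promoter table matched 72 of the 91 genes. The read ratio of 0.562 assumes 2700000000 mappable bases and reads extended to 200 bases, and leaves out the 10000-base mitochondrial window with the most reads.

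Lines sharing an interval were merged, keeping the highest −log10 q, and a gene's strongest interval is the one with the highest −log10 q. Intervals overlapping by at least 1 base are shared. Gene ends are from RefSeq GRCh38.p14, whose primary chromosomes have hg38 coordinates. The calling limit is the highest pileup whose p, at the siNEG local background (or the siEWS-FLI genome-wide one, if higher), stays above the largest p called with siEWS-FLI. The genes, lists and alternatives were chosen with earlier results of these data known. Named genes are the 10 strongest with siNEG, the 5 highest and 5 lowest ratios, the 5 strongest uncalled with siEWS-FLI, every standard gene without and every paralog or read-through gene with a siNEG summit, any gene with a siEWS-FLI summit alone, and RPLP0, RPLP1, RPLP2, RPSA, RPS6, RPS19, RPL5 and RPL11; some genes that the rule names are not reported here, and others illustrate neighbours and lists and were chosen after their values were seen. Python 3.11.15, numpy 2.4.6, scipy 1.17.1, pandas 2.3.3 and matplotlib 3.10.9 were used.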

Additional observations from a re-analysis of the deposited data

How the results depend on the processing

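Values were recomputed under 14 alternatives, 85 values in all, of which 74 stayed within 1.5 times the count reported or within its 95% interval. The 67 genes with a siNEG summit within 1 kb became 45 when the siNEG list was shortened to the length of the siEWS-FLI list and 55 at −log10 q of at least 5, where all protein-coding genes stood at 25.1% and ribosomal protein genes at 60.4%. At that threshold 14 genes had a siEWS-FLI summit within 1 kb (15.4%, against 6.14% of all protein-coding genes). The 58 genes with a siEWS-FLI summit within 50 kb became 35 within 10 kb, 31 at −log10 q of at least 5, 37 with intervals wider than 200 bases and 31 when a summit counted for its nearest gene alone. The share of 69.0% called in both libraries became 42.7%, 39.7%, 45.1% and 42.9% under the same settings. At −log10 q of at least 5, the 31 genes were 34.1%, against 19.4% of all protein-coding genes. The 39.7% called in both libraries stood beside 32.5% of all. Shares over all protein-coding genes were computed only for that threshold and for the nearest gene alone. The median siNEG pileup was 23 with the shortened list, which drops the weakest intervals by construction. The median ratio was 0.527 with fold enrichment in place of pileup. Fold enrichment is a different measure, the pileup plus 1 divided by the local background plus 1. For this and the remaining moved values the cause was not tested. No paired analysis was possible because there was 1 library in each group, and no library could be left out for the same reason. Weak sites limit these results: the lowest called pileup was 4 reads in each library.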

Other observations

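Of 1994 pseudogenes in RefSeq whose symbols derive from ribosomal protein genes, 12 had a siEWS-FLI summit within 1 kb of an end (0.602%, 0.311 to 1.05) and 32 a siNEG summit (1.60%, 1.10 to 2.26), and 4 had both. Of the 15057 other pseudogenes, 179 had a siEWS-FLI summit (1.19%, 1.02 to 1.38) and 409 a siNEG summit (2.72%, 2.46 to 2.99). No test of the difference was run. How reads that match several copies were placed is not given in the sources used here, and its part in these values was not tested.

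NPM1, which encodes the nucleolar protein nucleophosmin and belongs to the TOP list, was chosen after its values were seen. It had 15 reads with siEWS-FLI (8.40 to 24.7) and 6 with siNEG, a ratio of 2.5, the highest among the 2107 protein-coding genes with a shared gene-end interval. The Poisson intervals of the libraries overlapped.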
